A study of Homo sapiens with 8 samples.

Results

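Epithelial cells hold together through adherens junctions, desmosomes and tight junctions, and 9 genes are described here, some of which encode parts of these contacts. They are CDH1, CTNNA3, DSP, DSC2, F11R, LSR, MAP7, CDS1 and SH2D3A, 9 of the 19962 protein-coding genes measured. The study puts them among epithelial or adhesion genes affected by ZEB1 silencing. It reports more RNA of CDH1, DSP, DSC2, F11R, LSR and MAP7 after silencing, and places CDS1 and SH2D3A in the ZEB1 network. For CTNNA3 it reports a gain of H3K9me3. The members were taken by name, not by their values in these libraries, except that the study lists CTNNA3 for H3K9me3 found with the same libraries, so an H3K9me3 difference at CTNNA3 is not independent evidence of its direction. ZEB1 is a zinc finger repressor that drives the epithelial to mesenchymal transition, and it binds E-box sequences in the promoters of epithelial genes, E-cadherin among them. Trimethylation of histone H3 at lysine 4 (H3K4me3) marks promoters that are active or poised, and trimethylation at lysine 9 (H3K9me3) marks packed, silenced chromatin. In mesenchymal breast cancer cells the epithelial junction genes are usually low or silent.

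Native ChIP-seq, in which antibodies pull down nucleosomes from chromatin that was not cross-linked, was carried out in SUM159, a mesenchymal-like cell line derived from a triple-negative breast cancer. Every library came from cells transduced with pLV-KRAB, a lentivirus for dCas9-KRAB, a Cas9 that cannot cut DNA, joined to the KRAB domain, through which enzymes that write H3K9me3 are recruited. The All gRNA cells also carried 4 guides against the ZEB1 promoter, and the No gRNA cells carried the empty vector. Each mark was measured in 2 libraries per group, 8 in all. Whether these were pools of transduced cells or clones is not given in the labels. In bulk chromatin a lower share in each cell and fewer cells with the mark cannot be told apart. The labels call the replicates biological but do not name the cultures, so the spread between replicates may be partly technical. The measured quantity is the covered share, the percent of a window that lies under the peaks deposited for a library. It was taken over the start of each gene ± 10 kb for H3K9me3 and ± 1 kb for H3K4me3.

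The lists held 321975 to 410355 peaks for H3K9me3 and 395287 to 506683 for H3K4me3, without read counts, so sequencing depth is unknown. They reach down to weak regions, and peaks at q ≤ 0.05 are a small part of them. Within 1 kb of their starts, 33.2% and 11.5% of genes had such an H3K4me3 peak in the libraries labelled All gRNA replicates 1 and 2, compared with 9.26% and 52.6% in replicates 1 and 2 of the No gRNA label. In the same order, 7, 4, 4 and 8 of 10 genes used in nearly all cells and 5, 2, 3 and 6 of 6 genes of mesenchymal breast cancer cells, VIM and FN1 among them, had one. Of 6 genes of luminal breast cells, ESR1 and KRT8 among them, 2, 2, 2 and 4 did. Of 8 genes of other tissues, 1, 0, 0 and 1 did.

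The targeted gene was checked first. H3K9me3 covered 79.4% and 82.0% of the ZEB1 start ± 10 kb in All gRNA, compared with 4.57% and 1.33% in No gRNA, as the labels imply. H3K4me3 covered 0% of the ZEB1 start ± 1 kb in replicate 1 and 100% in replicate 2 under either label, which goes against the labels of 1 library in each group. The names of the deposited files also give the other condition to the libraries labelled All gRNA replicate 2 and No gRNA replicate 1. Labels were kept, every H3K4me3 library is called by its label, and every H3K4me3 direction given here rests on labels that are in doubt.

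The E-box that ZEB1 and the related SNAI repressors bind is CACCTG, which reads CAGGTG on the other strand. It was searched on both strands in the 250 bases before the RefSeq start (GRCh38.p14) of the 7 genes for which a promoter sequence was used. DSP and MAP7 each held 2 matches, CDS1 and DSC2 held 1 each, and LSR, SH2D3A and CTNNA3 held 0. The RefSeq start is not always the annotated start used for the windows. It lies 333 bases inside the gene at DSP, 397 at MAP7, 672 at LSR and 67442 at CTNNA3, so the 250 bases searched at DSP, MAP7 and LSR are all in annotated exons of the gene. Among 15315 promoters of the same length, 17.1% held at least 1 match and 2.32% at least 2. The 30 bases around each match are shown because they carry the letters that this repressor family recognises, with the E-box in capitals and each sequence read 5′ to 3′ on the strand of its gene:

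DSP, 178 bases before the RefSeq start (chr6:7541481-7541510, plus strand): gggcggcgggcgCAGGTGgggaggggcggc
DSP, 85 bases before the RefSeq start (chr6:7541574-7541603, plus strand): gaagaaaccggcCAGGTGtggcctaggcgc
MAP7, 170 bases before the RefSeq start (chr6:136550575-136550604, minus strand): gctgccacgccgCACCTGcccgcgaggggg
MAP7, 81 bases before the RefSeq start (chr6:136550486-136550515, minus strand): ccggactgcgctCACCTGtctgggccgctg
CDS1, 27 bases before the RefSeq start (chr4:84583088-84583117, plus strand): cgtggagacgcgCACCTGgcaaccggaggc
DSC2, 156 bases before the RefSeq start (chr18:31102560-31102589, minus strand): tcaactttctgtCAGGTGggcctcaggcag

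A match is a description of letters, not a bound site. The promoters also differ in base composition, and the values for CTNNA3 belong to the start inside the gene. G and C made up 76% to 78% of the 250 bases at CDS1, MAP7 and DSP, 59.6% to 64% at DSC2, LSR and SH2D3A, and 38.8% at CTNNA3, against a median of 62.4% over all promoters searched. The observed over expected CpG ratio, which is low where CpG has been lost, was 0.213 at CTNNA3 and 0.545 at DSC2 against a median of 0.743.

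None of the 9 genes was called higher in H3K9me3 at its start by the rule used, in which the lowest library of one group lies at least 25 percentage points above the highest of the other. A lower call was not possible, since the lower No gRNA value was 15.8% or less at every member. Of all genes, 0.18% were called higher in All gRNA and 0.0351% lower. The groups did not overlap at 2 of the 9 genes, CDH1 and DSP, both lower in All gRNA, whereas 24.4% of all genes were lower without overlap. No member was higher without overlap, against 11% of all genes. The median difference, All gRNA minus No gRNA, was -2.62 percentage points over the 9 genes and -0.92 over all genes. The same exact two-sided permutation test over the 6 ways to label the libraries was run for every single gene, and it cannot give a p below 0.33.

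**Figure D1:**
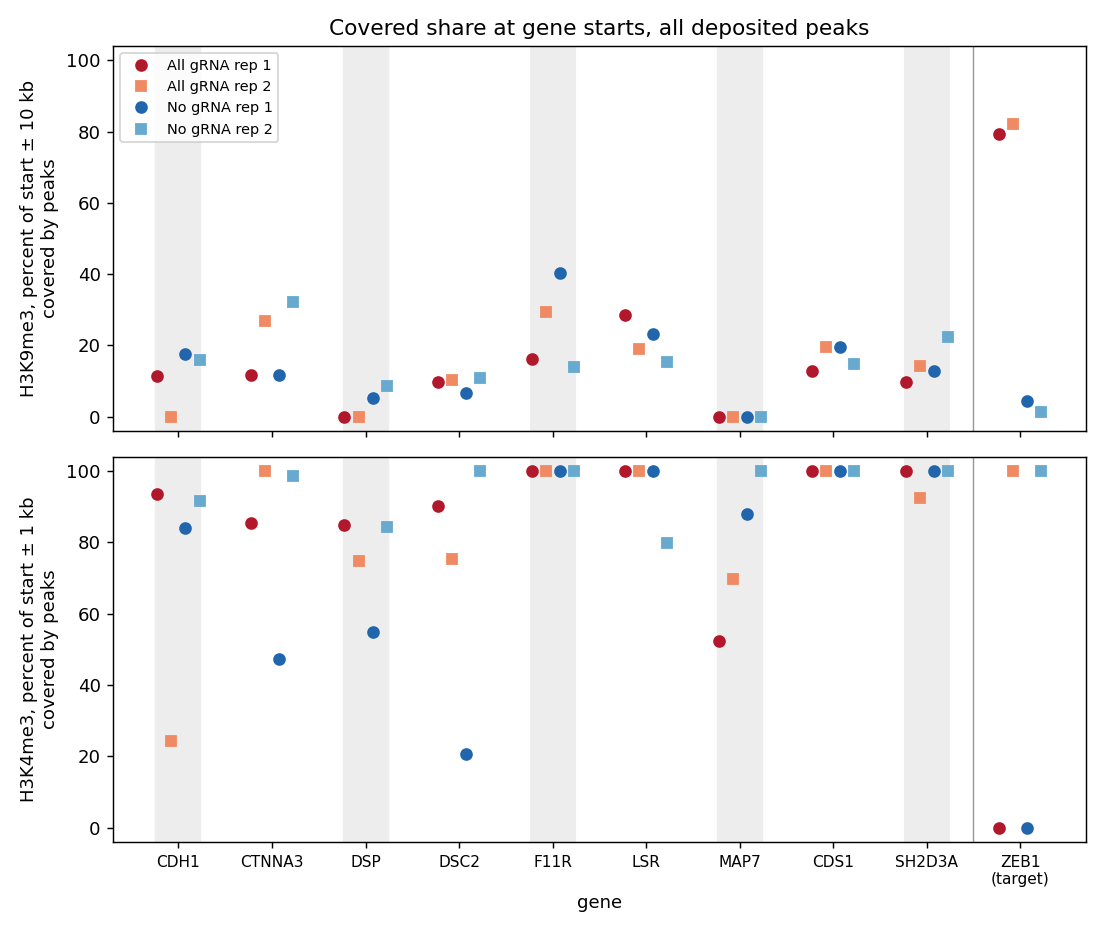
Covered share at the start of each of the 9 genes and of ZEB1, in percent, for H3K9me3 (upper panel, start ± 10 kb) and H3K4me3 (lower panel, start ± 1 kb). Each point is 1 library, coloured by its labelled group. H3K9me3 stays at or below 40.3% in every library at the 9 genes while ZEB1 reaches 82.0% in All gRNA. H3K4me3 at ZEB1 splits within both labelled groups.

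The cadherin and catenin genes link the cell surface to actin. CDH1 (ENSG00000039068.20, chromosome 16, start at 68737292, plus strand) encodes E-cadherin, the adhesion receptor of adherens junctions. H3K9me3 covered 11.5% and 0% of the CDH1 window in All gRNA, compared with 17.6% and 15.8% in No gRNA. All gRNA was the lower group and did not overlap No gRNA, with a gap of 4.29 points. The group values were 5.77% ± 8.16 and 16.7% ± 1.23 (SD, n = 2), and the difference of -10.9 points exceeded the pooled SD of 5.83 (p = 0.33, exact permutation test). No CDH1 peak had a q ≤ 0.05 in any of the 4 libraries, so at that threshold no difference was left.

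CTNNA3 (ENSG00000183230.18, chromosome 10, start at 67763637, minus strand) encodes alpha-T-catenin, which couples cadherins to actin. Its start was covered to 11.8% and 26.8% in All gRNA, compared with 11.7% and 32.1% in No gRNA. The replicates differed more within each group than the groups from each other, with a difference of -2.62 points and a pooled SD of 12.6. The gene body, described further on, gave another result.

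The desmosome genes anchor keratin filaments at the cell border. DSP (ENSG00000096696.16, chromosome 6, start at 7541338, plus strand) encodes desmoplakin, the plaque protein that holds the filaments. H3K9me3 covered 0% of the DSP window in either All gRNA library, compared with 5.35% and 8.57% in No gRNA. The groups did not overlap, and the difference of -6.96 points exceeded the pooled SD of 1.61 (p = 0.33, exact permutation test). The values behind it are 2 weak peaks in No gRNA replicate 1 and 3 in No gRNA replicate 2, with a lowest q of 0.497 and 0.231. DSC2 (ENSG00000134755.18, chromosome 18, start at 31102522, minus strand) encodes desmocollin 2, a desmosomal cadherin. It had 9.67% and 10.4% in All gRNA, compared with 6.75% and 10.8% in No gRNA, values that overlapped, and its difference of 1.25 points was under the pooled SD of 2.04. With every list cut to the same covered length DSC2 was at 0% in All gRNA and its difference was -8.77 points without overlap, so its sign depended on the weakest peaks. With lists cut in this way, 5866 of all 19962 genes were lower without overlap and 1713 higher.

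The tight junction genes seal the space between cells. F11R (ENSG00000158769.18, chromosome 1, start at 161021343, minus strand) encodes junctional adhesion molecule A. Its window was covered to 16.3% and 29.4% in All gRNA, compared with 40.3% and 13.8% in No gRNA, and the No gRNA replicates enclosed both All gRNA values. LSR (ENSG00000105699.17, chromosome 19, start at 35248330, plus strand) encodes angulin-1, which recruits tricellulin to the corners where 3 cells meet. It had 28.6% and 19.0% in All gRNA, compared with 23.3% and 15.3% in No gRNA, a difference of 4.52 points against a pooled SD of 6.26. With a window of ± 5 kb in place of ± 10 kb the LSR difference turned to -9.98 points, so its sign depended on the window.

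The other members encode proteins of other kinds. MAP7 (ENSG00000135525.19, chromosome 6, start at 136550819, minus strand) encodes a protein that binds microtubules and recruits kinesin. H3K9me3 was at 0% within 10 kb of its start in every library, and the nearest peaks lay 20850 and 19572 bases away in All gRNA, compared with 16971 and 14749 in No gRNA. CDS1 (ENSG00000163624.6, chromosome 4, start at 84583127, plus strand) encodes a CDP-diacylglycerol synthase, an enzyme of phospholipid synthesis. It had 13.0% and 19.4% in All gRNA, compared with 19.6% and 14.8% in No gRNA, which overlapped. With lists cut to the same covered length CDS1 was lower without overlap, as were 5866 of all 19962 genes, and its difference was -4.89 points. SH2D3A (ENSG00000125731.13, chromosome 19, start at 6767463, minus strand) encodes an adaptor with an SH2 domain, and its values of 9.87% and 14.2% in All gRNA overlapped the 12.8% and 22.5% in No gRNA.

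By the mean over the 4 H3K9me3 libraries the order was F11R (24.98% ± 12.3, SD), LSR (21.6% ± 5.74), CTNNA3 (20.6% ± 10.4), CDS1 (16.7% ± 3.33), SH2D3A (14.8% ± 5.42), CDH1 (11.2% ± 7.91), DSC2 (9.39% ± 1.82), DSP (3.48% ± 4.23) and MAP7 (0%). From F11R down to DSC2 each gene differed from the next by less than their pooled SD, and only the steps from DSC2 to DSP and from DSP to MAP7 exceeded it. The median over the 9 genes was 11.5% and 14.2% in All gRNA, compared with 12.8% and 14.8% in No gRNA. Over all genes the median was lower, 3.59% and 4.78% in All gRNA, compared with 6.63% and 7.62% in No gRNA. At q ≤ 0.05, 8 of the 9 genes had no H3K9me3 peak within 10 kb in any library, and neither had 17114 of all 19962 genes. The exception was F11R in No gRNA replicate 2, with 1 peak of 339 bases at a distance of 8302 bases from the start and a q of 0.00413, which covered 1.70% of the window. No member was called or free of overlap at q ≤ 0.05, where 0.225% of all genes were called higher and 0.00501% lower, and 1.65% were higher and 0.541% lower without overlap. ZEB1 differed by 45.1 points at that threshold.

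**Figure D2:**
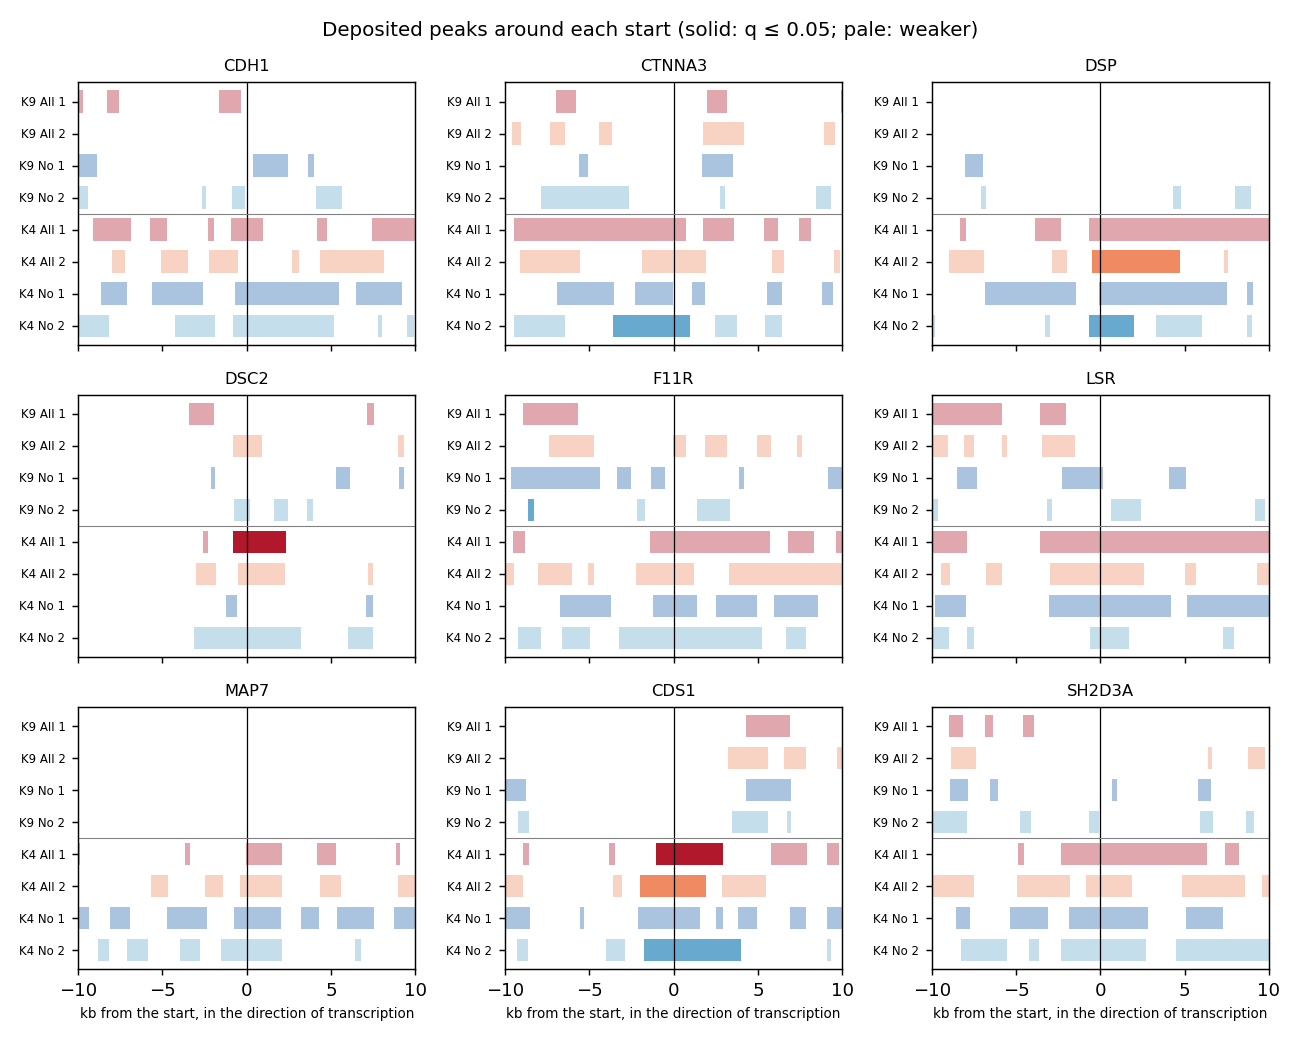
Every deposited peak within 10 kb of the start of each gene, by library, with the distance from the start in kb in the direction of transcription. K9 and K4 stand for H3K9me3 and H3K4me3, All and No for the labelled groups, and solid bars have q ≤ 0.05. H3K9me3 bars are mostly short and pale, some of them near the same place in several libraries and 1 solid at F11R, whereas H3K4me3 bars cross most starts, and solid ones stand at DSP, CDS1, DSC2 and CTNNA3.

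All 9 starts carried an H3K4me3 peak in every library. So did 84.6% and 88.9% of all genes in the pair labelled All gRNA, and 83.5% and 88.5% in the No gRNA pair. With every list cut to the same covered length, 9 and 8 of the 9 starts kept a peak in the All gRNA pair, and 7 and 9 in the No gRNA pair. None of the 9 genes passed the 25-point rule between the labelled groups. Of all genes, 1.78% were called higher in the libraries labelled All gRNA and 2.21% lower. The labelled groups did not overlap at 1 gene, MAP7, which was lower in All gRNA, against 7.59% of all genes lower and 6.33% higher without overlap. The median difference was 0 over the 9 genes and 0 over all genes. With only the 2 libraries whose file names match their labels, a comparison added after seeing the data that has 1 library per group and no replicate check, MAP7 alone differed by 25 points or more. In that comparison 7.53% of all genes were higher in All gRNA and 16.1% lower by as much.

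F11R and CDS1 were covered to 100% in all 4 libraries. SH2D3A was at 100% in every library but the one labelled All gRNA replicate 2, at 92.6%. LSR was at 100% in every library but the one labelled No gRNA replicate 2, at 79.8%. F11R and CDS1, fully covered in every library, show no difference on this scale.

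MAP7 had 52.3% and 69.8% in the pair labelled All gRNA, compared with 88.0% and 100% in the pair labelled No gRNA. The difference of -33.0 points exceeded the pooled SD of 10.6, with a gap of 18.2 points (p = 0.33, exact permutation test). If the doubted labels were exchanged, the groups would overlap at MAP7, while CTNNA3, described below, would be lower in All gRNA without overlap. The difference was -19.1 points around the MANE Select start, 397 bases further in, and 0 at q ≤ 0.05, where MAP7 had no peak in any library. In all 4 libraries 1 peak crossed the MAP7 start, and its downstream end lay between 136548711 and 136548794. The start of MAP7-AS1, an antisense RNA gene, lies 158 bases away on the other strand, so this peak cannot be assigned to MAP7 alone.

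CDH1 was covered to 93.6% and 24.2% in the pair labelled All gRNA, compared with 84.1% and 91.6% in the pair labelled No gRNA. A single library, labelled All gRNA replicate 2, stood low, and without it the difference was 5.80 points in place of -28.9. The peaks at CDH1 were the weakest of the members in every library but the one labelled No gRNA replicate 1, with q values of 0.710 and 0.954 in All gRNA, compared with 0.426 and 0.792 in No gRNA.

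DSC2 had 90.4% and 75.4% in the pair labelled All gRNA, compared with 20.7% and 100% in the pair labelled No gRNA, so the No gRNA libraries lay on either side of both others. CTNNA3 had 85.5% and 100% against 47.2% and 98.8%, and DSP 85.0% and 74.8% against 55.0% and 84.2%. In all 3 genes the library labelled No gRNA replicate 1 was the lowest. DSCAS, a noncoding gene on the other strand, starts 982 bases from DSC2, and DSP-AS1 starts 1776 bases from DSP, so the DSC2 peaks cannot be assigned to 1 strand, while DSP-AS1 starts outside the DSP window.

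Covered share says little about how strong a peak is. DSP had the strongest peak of the members in every library but the one labelled All gRNA replicate 1, where DSC2 had, with DSP q values of 0.0799 and 0.0105 in replicates 1 and 2 labelled All gRNA, compared with 0.164 and 0.000108 in those of the No gRNA label. Only 1.70% of all genes had a stronger peak than DSP in All gRNA replicate 2 and 5.48% in No gRNA replicate 2, against 41.2% and 25.5% in the replicates 1. CDS1 had q values of 0.0332, 0.0247, 0.357 and 0.000651 in the same order, and 26.0%, 5.03%, 45.2% and 12.6% of genes above it. Each labelled group thus held 1 library in which DSP and CDS1 ranked near the top and 1 in which they did not.

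The rank of the strongest peak did not overlap between the groups as labelled at DSC2 and F11R. DSC2 had 23.8% and 32.2% of genes above it in the pair labelled All gRNA, compared with 79.0% and 63.7% in the pair labelled No gRNA. F11R had 41.6% and 34.6% against 78.4% and 64.0%. These 2 of 9 genes ranked stronger without overlap in All gRNA, as did 14.4% of all genes, and none ranked weaker, as did 15.8%. The separation rests on labels in doubt and would be lost at both genes if the 2 doubted labels were exchanged. By the same exchange DSP and CDS1 would rank weaker in All gRNA without overlap, and CDH1, LSR and MAP7 stronger. How many of all genes would do so was not counted. The 2 libraries whose file names match their labels gave 23.8% against 63.7% at DSC2 and 41.6% against 64.0% at F11R, with no replicate check. The 5 members CDH1, F11R, LSR, MAP7 and SH2D3A had no H3K4me3 peak at q ≤ 0.05 in any library, and neither had 9027 of all 19962 genes. Among the others DSC2 had one only in All gRNA replicate 1 as labelled and CTNNA3 only in No gRNA replicate 2 as labelled, and DSP in replicate 2 of either label. CDS1 had one in every library except that labelled No gRNA replicate 1. No member was called or free of overlap between the labelled groups at this threshold, at which 0.135% of all genes were called higher and 1.62% lower, and 0.481% were higher and 2.2% lower without overlap.

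**Figure D3:**
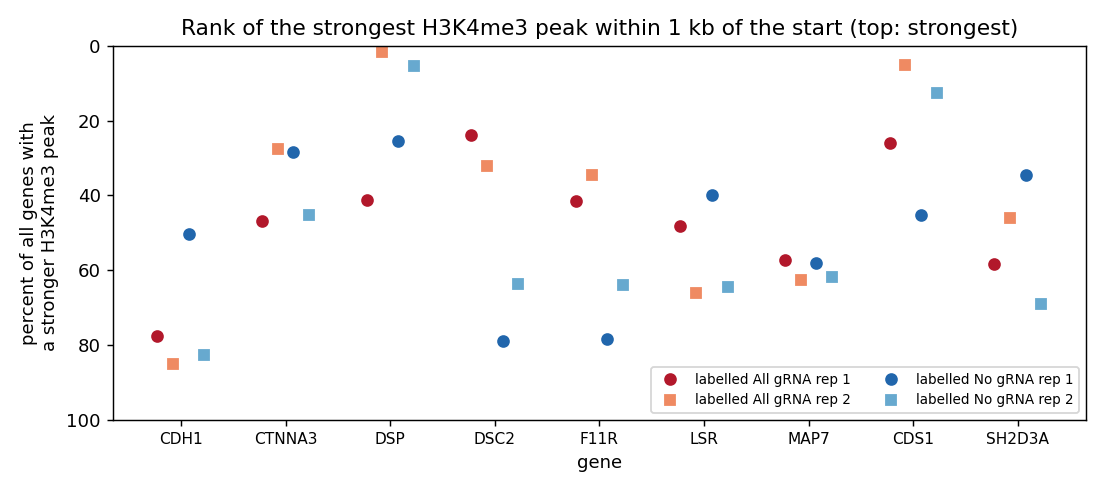
Percent of all 19962 genes whose strongest H3K4me3 peak within 1 kb of the start is stronger than that of the gene shown, for each library, with the axis turned so that strong peaks stand at the top. DSP and CDS1 reach the top in the replicates 2, CDH1 lies at 50.4% or lower down in every library, and the groups as labelled do not overlap at DSC2 and F11R.

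Across gene bodies, H3K9me3 covered less of 8 of the 9 genes than of CTNNA3 in every library. The median over all genes was 2.53% and 3.46% in All gRNA, compared with 5.28% and 6.21% in No gRNA. CTNNA3, CDH1 and DSC2 lay above that median in every library, and the other members did not. The groups did not overlap at 2 genes that were higher in All gRNA, CTNNA3 and MAP7, against 10.8% of all genes, and at 3 that were lower, DSP, DSC2 and LSR, against 24.5%. No member passed the 25-point rule, which 0.401% of all genes passed upward and 0.24% downward. The median difference was -3.02 points over the 9 genes and -0.53 over all genes.

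Among the lower genes, the DSP body was covered to 1.44% and 0% in All gRNA, compared with 10.5% and 15.3% in No gRNA. The LSR body had 0% in both All gRNA libraries against 6.00% and 17.7%, and the DSC2 body 8.06% and 7.55% against 16.6% and 12.5%. The differences were -12.2, -11.9 and -6.78 points, each larger than its pooled SD of 2.54, 5.87 and 2.05. MAP7 was higher in All gRNA by only 1.02 points, with 6.02% and 6.36% against 5.17% and 5.18%. The bodies of CDH1, F11R, CDS1 and SH2D3A lay between 0% and 24.1% and their groups overlapped.

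CTNNA3 is the longest member by far, with 1851181 bases on chromosome 10 from 65912457 to 67763637. H3K9me3 covered 49.9% and 50.6% of it in All gRNA, compared with 29.8% and 28.7% in No gRNA. The difference of 20.97 points was many times the pooled SD of 0.629, the gap was 20.1 points, and p was 0.33 in the exact permutation test, its smallest value. Leaving out each library in turn gave 20.4 to 21.5 points. ZEB1 itself, for comparison, differed by 17.5 points over its body, with 33.0% and 35.1% against 17.5% and 15.5%.

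The difference ran along the gene rather than standing at 1 place, as was seen in 10 kb windows, a count added after seeing the data. All gRNA had the higher mean in 173 of 186 windows and the lower in 13. The groups did not overlap in 131 windows (70.4%) that were higher and in 5 (2.69%) that were lower. Over the genome 16.5% of windows were higher and 13.8% lower without overlap, and on chromosome 10 18.6% and 16.2%. By the 25-point rule 31 windows (16.7%) were called higher and 0 lower, against 0.876% and 0.196% of windows over the genome and 1.79% called higher on chromosome 10. A higher call needs at least 25% in both All gRNA libraries. The median window had 50.5% and 51.9% there in CTNNA3, against 10.6% and 12.2% over the genome, so these shares are not like for like. Neighbouring windows of 1 gene are also not separate observations. The called windows lay from 18.6 to 1849 kb from the start, with differences of 29.7 to 57.1 points. The largest stood at chr10:66560001-66570000, with 74.8% and 84.4% in All gRNA, compared with 20.99% and 23.9% in No gRNA. Another called window, chr10:66950001-66960000, had 53.0% and 75.2% against 13.8% and 9.96%. It holds the region for which the study listed CTNNA3 from the same libraries, so it is not independent of that listing. The bodies of the other 8 members held no called window in either direction.

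The difference was not bounded by the gene at its far end. In the 1 Mb before the CTNNA3 start the mean share was 3.92% and 3.75% in All gRNA, compared with 6.12% and 7.12% in No gRNA, and no window was called. There 20 of 100 windows were lower in All gRNA without overlap and 3 higher, beside 13.8% and 16.5% of windows over the genome. In the 1 Mb past its end it was 53.3% and 53.6% against 37.9% and 35.7%, and 6 of 100 windows were called higher. LRRTM3, a synaptic adhesion gene, lies inside CTNNA3 (66926036 to 67101551), so peaks there fall in both genes.

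**Figure D4:**
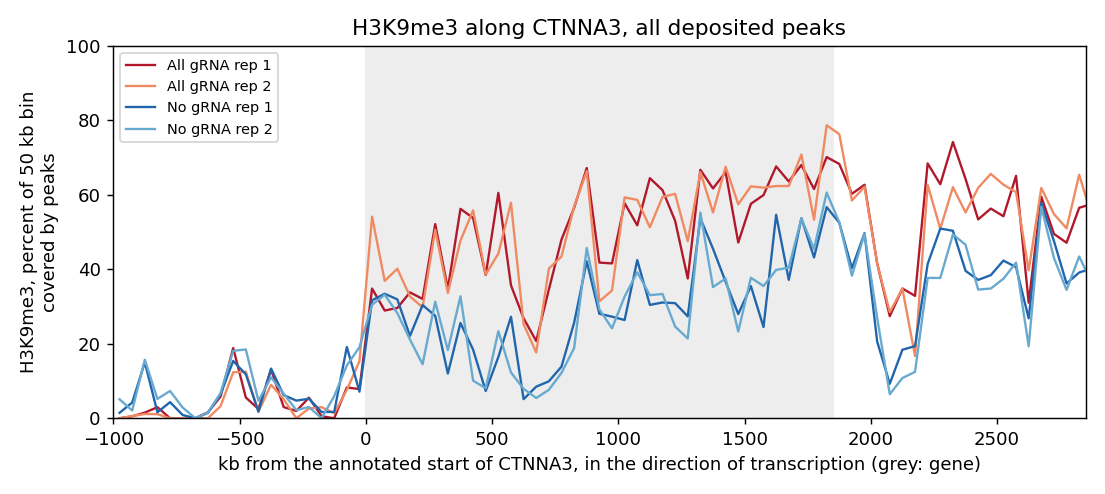
H3K9me3 along CTNNA3 and the flanking sequence, as the percent of each 50 kb bin covered by peaks in each library, against the distance in kb from the annotated start in the direction of transcription. The grey band is the gene. Shares are mostly low before the start, where several bins are lower in All gRNA. Within the gene both All gRNA lines lie above both No gRNA lines in most bins, with overlap in some bins near the start, and most bins past its end are higher in All gRNA too.

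How far CTNNA3 stands apart depends on what it is compared with. Of all 19962 genes, 429 had a larger gene body difference, and of the 730 genes of chromosome 10, 16 had. Among the 322 genes of 500 kb or more 2 had a larger difference, and among the 71 genes of 1 Mb or more 1 had. At q ≤ 0.05 a larger difference was found in 730 of all genes, 29 of those of 500 kb or more and 8 of those of 1 Mb or more. Of the genes of 1 Mb or more, 53.5% were higher in All gRNA without overlap, with a median difference of 1.21 points, and of all genes 10.8%.

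The number of peaks in CTNNA3 was alike, 355 and 378 in All gRNA, compared with 378 and 379 in No gRNA, but they were wider in All gRNA. Their median width was 1844 and 1578 bases in All gRNA, compared with 993 and 959 in No gRNA. Over the whole lists the median peak was also wider in All gRNA, 1133 and 1112 bases against 959 and 929, and the part of this in the CTNNA3 difference was not tested. Cutting every list to the same covered length left 20.3 points. At q ≤ 0.05 the shares were 6.10% and 4.01% in All gRNA, compared with 0.606% and 3.05% in No gRNA, still without overlap, while 2.59% of all genes were higher and 1.58% lower without overlap. That difference of 3.22 points is far smaller, so most of the difference lies in weak peaks. The gap at this threshold was 0.955 points. By number of such peaks the groups overlapped, with 39 and 28 in All gRNA, compared with 14 and 43 in No gRNA. The list of No gRNA replicate 1 also covered less of the genome at q ≤ 0.05, 97.6 Mb against 188 to 238 Mb in the others.

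CTNNA3 also has a start within the gene, the MANE Select start 67442 bases from the annotated one. H3K4me3 covered 46.4% and 16.04% around it in the pair labelled All gRNA, whereas both libraries labelled No gRNA were at 0%. H3K9me3 around it was 26.3% and 46.9% in All gRNA, compared with 39.2% and 42.7% in No gRNA, which overlapped.

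The wider set of junction, polarity and adhesion genes held 49 genes, 40 of them not members. For H3K9me3 at the starts none of the 40 was called, 4 were higher without overlap (NECTIN2, AFDN, DSC3 and DSG3), beside 11% of all genes, and 11 lower (CDH3, CLDN1, CGN and EPCAM among them), beside 24.4% of all genes, and the median over the 49 was -1.52 points. CGN, which encodes cingulin of the tight junction plaque, had 0% in either All gRNA library, compared with 20.5% and 15.4% in No gRNA. EPCAM, an epithelial adhesion molecule, had 0% in both against 16.3% and 11.6%. DSG3, among the 4 higher genes, had 14.3% and 9.98% in All gRNA against 0% in both No gRNA libraries. CGN, EPCAM and DSG3 had no H3K9me3 peak at q ≤ 0.05 within the window in any library, and neither had 17114 of all 19962 genes.

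For H3K4me3, 3 of the 40 genes were called higher in the libraries labelled All gRNA, beside 1.78% of all genes, and 3 lower, beside 2.21%. These directions rest on the labels in doubt, and all 6 genes would overlap between the groups if the 2 doubted labels were exchanged. JUP, or plakoglobin, was covered to 100% and 100% in the libraries labelled All gRNA against 55.5% and 71.5%, CLDN3 to 100% and 100% against 0.100% and 34.3%, and MARVELD2, which encodes tricellulin, to 66.5% and 100% against 0.100% and 0%. CDH3, or P-cadherin, had 53.2% and 56.4% against 100% and 100%, CTNND1, or p120-catenin, 0% and 0% against 100% and 58.3%, and the claudin CLDN4 32.3% and 32.2% against 100% and 62.9%. None of these 6 had a peak at q ≤ 0.05 within the window in any library, and neither had 9027 of all 19962 genes.

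Likeness was measured as the Euclidean distance between the shares of 2 genes over all 8 libraries, within the 49. SH2D3A and PRKCI were 10.5 points apart and CDS1 and CLDN1 10.5, while the members CDS1 and SH2D3A were 14.1 apart. The nearest gene to F11R was CLDN1 (22.8), to CDH1 CGN (23.4) and to LSR DSG2 (23.5). DSC2, MAP7 and CTNNA3 had no near neighbour, the closest being AFDN at 32.7, PALS1 at 40.4 and DSC2 at 45.6 points.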

How the data were processed

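H3K9me3 and H3K4me3 were measured by native ChIP-seq in 8 SUM159 libraries, 2 per group and mark, grouped by the sample labels. According to the study's methods, the authors trimmed paired reads with fastp, aligned them to hg38 with bowtie2, removed duplicates and excluded regions, and called broad peaks in each library with MACS2. The submitters' processing notes instead name bcl2fastq 2.17, Trimmomatic 0.33, Bowtie 1.1.2 and MACS2 2.1.0, and whether input served as the control is not given in the sources used here. For each peak the authors deposited a score, a fold ratio over background, and p- and q-values on the −log10 scale. The lowest −log10 p was 1.00 in every list, so weak regions were kept.

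Here all deposited peaks on chromosomes 1 to 22 and X were merged within a library, and the covered share was computed (Python 3.11.15, numpy 2.4.6, pandas 2.3.3) at the annotated 5′ end of the gene (GENCODE release 44). Tests were exact permutations over 6 labelings. The share computation was tested on simulated peaks. No list repeated another. Promoter sequences came from RefSeq. Members, lists and rules were chosen with earlier results of these data known. Named were the 9 genes, ZEB1, the called genes of the junction list, the 3 nearest genes by likeness and genes that start inside a window, and genes named for not overlapping were added after their values were seen. Values at some genes of the junction list are not reported here. The alternatives tried were the q threshold, window, start, gap, covered length and each library.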

Additional observations from a re-analysis of the deposited data

How the results depend on the processing

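Differences below are in percentage points, All gRNA minus No gRNA. For H3K9me3 at the starts, the median over the 9 genes (-2.62) was 0 at q ≤ 0.05 and 0 at q ≤ 0.01, -6.22 with lists cut to equal covered length, -4.33 at MANE Select starts, and -5.17 to 0 with a library left out (0 and -5.17 without All gRNA replicates 1 and 2, -0.77 and -0.74 without No gRNA replicates 1 and 2). Genes lower without overlap (2) numbered 0 at q ≤ 0.05 and at q ≤ 0.01, 4 at equal length, 5 with ± 25 kb, and 2 to 5 with a library left out (4 without All gRNA replicate 2, 5 without No gRNA replicate 1, 4 without No gRNA replicate 2); genes higher without overlap (0) numbered 0 to 2, 1 without All gRNA replicate 2 and 2 without either No gRNA library. Over all 19962 genes at equal length, 5866 were lower and 1713 higher without overlap, and the median was -1.67. With another window, MANE Select starts, another gap or a library left out, counts over all genes were not made for either mark. Member counts under these settings therefore have no background beside them. The junction list median (-1.52) was -3.53 with ± 25 kb. ZEB1 (77.8) was 45.1 at q ≤ 0.05, 4.83 at q ≤ 0.01, 69.9 with ± 5 kb, 56.6 with ± 25 kb and 75.4 at its MANE Select start. For H3K4me3, the median (0) was 10.1 at equal length. Genes called higher (0) numbered 0 to 2 with a library left out, 2 without No gRNA replicate 2, and genes called lower (0) numbered 1 with a gap of 10 points and 0 to 1 with a library left out, 1 when any library other than No gRNA replicate 2 was left out. Genes higher without overlap (0) numbered 1 at MANE Select starts and 1 to 3 with a library left out (1 and 2 without All gRNA replicates 1 and 2, 1 and 3 without No gRNA replicates 1 and 2), and genes lower without overlap (1) numbered 0 at both q thresholds and 1 to 3 with a library left out, 3 without All gRNA replicate 1 and 2 without No gRNA replicate 1. With only the 2 H3K4me3 libraries whose file names match their labels, 1 gene was called lower, beside 16.1% of all genes. By any amount 3 were higher and 3 lower, which was not counted over all genes, and ZEB1 moved from 0 to -100 points.

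The gene body median (-3.02) was 0 at q ≤ 0.05 and q ≤ 0.01, and -6.52 to -0.89 with a library left out, the lowest without All gRNA replicate 2. The 31 windows of CTNNA3 called higher numbered 2 at q ≤ 0.05, 0 at q ≤ 0.01, 90 with a gap of 10 points, 1 with 50, and 46 to 55 with a library left out, 55 without All gRNA replicate 2, 51 and 47 without No gRNA replicates 1 and 2. At q ≤ 0.05 these were 1.08% of its windows, against 0.354% over the genome. For the other settings in this list, windows over the genome were not counted. Fewer peaks or fewer libraries enter these alternatives by construction; otherwise the cause was not tested. Of 418 alternative values 316 stayed within the spread of replicates, or within 1.5 times for counts. Those of the replicate block are among both numbers and equal the main value by construction, so the tally is not a measure of robustness. A result of 0 could not be counted as reversed. None of the called results reversed. No member was called, so a change of sign at a member was not counted as a reversal, and such changes occurred. The H3K9me3 difference at LSR went from 4.52 to -9.98 with ± 5 kb. At DSC2 it went from 1.25 to -8.77 with lists cut to equal covered length.

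Same-numbered libraries did not deviate together, with correlations of 0.0264 for H3K9me3 and 0.0149 for H3K4me3 over 19962 genes, so the numbers were not taken to pair them. The replicate block left every difference unchanged, with a median of -2.62 for H3K9me3 and 0 for H3K4me3 over the 9 genes, and its smallest p is 0.5. The limits are the unknown depth, 2 libraries per group, H3K4me3 labels in doubt, and weak peaks that carry most of the covered share at these genes.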
